A study of Ovis aries with 20 samples.

Results

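The comparison described here is of CFTR−/− against WT sheep pancreas at 80 days of gestation by bulk RNA-seq. Its libraries were chosen by their labels alone, as those of genotype WT or CF at day 80, and they are 4 of the 20 libraries deposited, each from 1 fetus. The WT group holds 2 bred American Romney fetuses, and the group labelled CF holds 2 American Romney fetuses cloned by somatic cell nuclear transfer from the male fetal fibroblast line CF 60, in which exon 2 of CFTR was targeted on both alleles. All CFTR−/− animals therefore come from 1 edited line, so that genotype, cloning and the donor's own alleles cannot be told apart. The sex of the WT fetuses is not given in the labels. The other 16 libraries are of the same genotypes at 65, 100, 120 and 147 days (term), with 2 animals in each group, and they were used to estimate the spread and to see whether a difference at 80 days was also present in other animals. The question behind the comparison is which transcripts differ early in pancreatic disease of cystic fibrosis, at an age at which the study had described histological changes.

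CFTR is an anion channel of the apical membrane of epithelial cells, and in the pancreas it is most abundant in ducts, where it carries chloride and bicarbonate and so keeps the secreted juice fluid and alkaline. Acinar cells make the digestive enzymes, ducts drain them, and islets make hormones. In cystic fibrosis the ducts become blocked, acini are lost, and the gland is replaced by fibrous tissue, which is laid down by fibroblasts and by stellate cells that have turned into contractile myofibroblasts.

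Values are given as CPM (counts per 1000000 counts), normalized for library size and composition by edgeR's TMM method. Total counts were 58758258 in WT animal 1, 61537944 in WT animal 2, 59721291 in CFTR−/− animal 1 and 64947692 in CFTR−/− animal 2. At this depth 1 count was worth 0.0138, 0.0122, 0.0132 and 0.0131 CPM in the same order, and 3 counts, the floor used for a group without counts, were worth 0.0413, 0.0367, 0.0396 and 0.0393 CPM. Floors and bounds from counts cover counting error only. Values of single genes are given below in the order WT animals 1 and 2, then CFTR−/− animals 1 and 2.

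CFTR−/− animal 2 stood apart from the other 3 animals by the median difference over genes. Across the 19522 genes tested, its median absolute log2 difference was 0.385 from WT animal 1, 0.464 from WT animal 2 and 0.416 from CFTR−/− animal 1. The same measure was 0.285 between the WT animals, and CFTR−/− animal 1 lay closer to WT animal 2, at 0.22, than to its own group mate. By the number of genes more than 4-fold apart, WT animal 1 lay about as far from the others: 1204 from WT animal 2, 1390 from CFTR−/− animal 1 and 1444 from CFTR−/− animal 2. That number was 1428 between WT animal 2 and CFTR−/− animal 2, 1243 between the CFTR−/− animals, and 709 between WT animal 2 and CFTR−/− animal 1. CFTR−/− animal 2 had the highest value of the 4 animals for 6578 genes and CFTR−/− animal 1 for 3947. The 10 most abundant genes took 13.7, 15.9, 16.4 and 10.5% of the counts. Results that rest on CFTR−/− animal 2 are therefore given with and without it.

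The labelled tissue was checked against its markers. The series' own design line names tracheal epithelium, whereas the labels of all 4 libraries name pancreas, and acinar and islet transcripts were abundant in each of them. Carboxypeptidase A1 (CPA1) was measured at 8341, 7135, 8991 and 6131 CPM, carboxyl ester lipase (CEL) at 5966, 6074, 5729 and 4007 CPM, and glucagon (GCG) at 9748, 7345, 7087 and 4273 CPM. INS, PDX1 and PTF1A have no gene of that name in the table and could not be read. CFTR itself (chromosome 4) was at 27.7, 30.1, 30.6 and 43.9 CPM, with an edgeR estimate of 0.37 on the log2 scale (SE 0.363), or 0.08 without CFTR−/− animal 2 and 0.59 without CFTR−/− animal 1. The counts are summed over all exons of a gene, so they do not show whether the targeted exon was read, and transcripts of the edited gene were still present in both CFTR−/− animals.

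No gene passed the threshold between the genotypes at 80 days. With edgeR's quasi-likelihood F-test on all 20 libraries, 0 of 19522 genes (0%) reached a Benjamini-Hochberg adjusted p of 0.01 with an absolute log2 fold change of 0.58, and every adjusted p was 1. An unadjusted p below 0.05 was seen for 275 genes (1.41%). The median SE of a log2 fold change was 0.544, and the median log2 fold change of all genes was 0.0045. On the same counts DESeq2's Wald test called 7 genes, 3 higher (SYCP2L, PARP3 and LOC105602836) and 4 lower in CFTR−/− animals (among them ALG1, LOC101102411 and LOC106990272). The likelihood ratio test of edgeR called 4, of which SYCP2L and LOC105602836 were higher and LOC101102411 and LOC105602321 lower. With 2 animals on each side, exact permutation has a two-sided p of 0.333 as its lowest possible value, so the values of all 4 animals are given for each gene.

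When the adjustment was dropped, keeping a p limit of 0.01 and the fold limit, 38 genes were higher (0.195% of those tested) and 12 lower (0.0615%) in CFTR−/− animals by edgeR. This list of 50 genes is a description, since none of them passed the adjusted threshold. The 1.41% of genes with a p below 0.05 is less than the 5% that would be there if no gene differed and the spread pooled over all 20 libraries also fitted 80 days. By this fit the p-values of all genes show no excess of small values. Genes more than 4-fold apart between group mates numbered 1204 in WT and 1243 in CFTR−/− animals at 80 days. In the other groups they ranged from 844 (WT, 65 days) to 4243 (CFTR−/−, 100 days). Whether the pooled spread is too wide for 80 days was not tested. Whether the genes of the list differ by chance was not tested, and how they lay at other ages is given below. For 37 of the 38 and 11 of the 12 the values of the genotypes did not overlap, which held for 15.1% of all genes in the higher and 15.8% in the lower direction. The list depended on single animals: it held 14 genes without CFTR−/− animal 2, 123 without CFTR−/− animal 1, 16 without WT animal 1 and 31 without WT animal 2. Of the 38 higher genes, 20 were more than 2-fold higher in CFTR−/− animal 2 than in animal 1, 2 were the other way round, and 16 were within 2-fold in both animals. Of the 50, 17 were loci without a gene name.

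Among the genes lower in both CFTR−/− animals, ALG1, which encodes the mannosyltransferase that adds the first mannose to the lipid-linked precursor of N-glycans in the endoplasmic reticulum, was the named gene with the smallest p. Its values were 27.51, 28.86, 13.03 and 13.39 CPM. The animals of a genotype thus lay close together, and neither CFTR−/− animal reached the WT range. By edgeR the log2 fold change was -1.09 (SE 0.23, unadjusted p 0.00027 by the quasi-likelihood F-test fitted to all genes), and with any 1 animal left out it lay between -1.14 and -1.06. ALG1 (chromosome 24, 4111536 to 4125253 of Oar_v4.0) was called by DESeq2's Wald test at 80 days (Benjamini-Hochberg adjusted p 0.000701) and not by edgeR's likelihood ratio test.

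COPG2 (chromosome 4, 94270534 to 94410724), which encodes a gamma subunit of the COPI coat of Golgi vesicles, was at 20.6, 20.9, 12.9 and 12.3 CPM, and its log2 fold change by edgeR was -0.72 (SE 0.237). ENTPD8, an ectonucleotidase that degrades extracellular ATP, was at 5.06, 4.56, 1.64 and 1.05 CPM. RECQL5, a DNA helicase, was at 15.1, 13.8, 7.93 and 5.45 CPM. In all 3 both CFTR−/− animals lay under both WT animals. The Hedgehog inhibitor HHIP was at 3.67, 3.34, 1.35 and 0.642 CPM, and the matrix protein genes EFEMP1 and MAMDC2 were at 26.4, 25.9, 17.0 and 11.6 CPM and at 14.9, 16.4, 8.04 and 3.77 CPM. For these last 3 genes the lowest value was that of CFTR−/− animal 2. Their log2 fold changes of -1.81, -0.87 and -1.41 were -1.38, -0.62 and -0.96 without it. Other named genes whose genotypes did not overlap were A1BG (6.35, 8.28, 3.30 and 0.996 CPM), the chloride channel gene TTYH1 (9.74, 8.51, 4.54 and 3.50 CPM), SAYSD1 (5.28, 3.25, 1.28 and 1.83 CPM) and STPG1 (1.10, 1.58, 0.0924 and 0.301 CPM). These 4, with HHIP, EFEMP1 and MAMDC2, had an unadjusted p over 0.01 by edgeR, between 0.0116 and 0.0162.

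Some genes had no count at all in the CFTR−/− animals. The locus LOC101102411 (chromosome 13, 56751212 to 56752933, minus strand) was at 27.4 and 36.9 CPM in the WT animals and at 0 counts in both CFTR−/− animals, which is at least 815-fold lower against a floor of 3 counts per library. It is annotated as protein coding and lies beside GNAS (56686378 to 56740118, the same strand), an imprinted gene for the stimulatory G protein subunit that was itself at 3698, 3353, 2515 and 2337 CPM. LOC105602321 (chromosome 15, 54681138 to 54682950) was at 0.482 and 0.880 CPM in the WT and at 0 counts in the CFTR−/− animals, at least 17.3-fold lower. LOC106990272 was at 1.13 and 4.82 CPM in the WT and at 0 in the CFTR−/− animals, at least 75.4-fold lower. OCA2, a melanosomal transporter, was at 0.303 and 0.403 CPM in the WT and at 0 in the CFTR−/− animals, at least 8.95-fold lower. The last 2 differ in how firmly they were read, since LOC106990272 varied over 4-fold between the WT animals and OCA2 was measured at under 1 CPM. The locus LOC101112291 on the X chromosome, singled out after its values were seen, was at 701 CPM in WT animal 1, 0.0244 CPM in WT animal 2, 0 in CFTR−/− animal 1 and 0.157 CPM in CFTR−/− animal 2. Its log2 fold change of -12.08 therefore rested on WT animal 1 and was 1.59 without it. At the other ages LOC101112291, annotated as a long noncoding RNA, was at 797, 864, 997, 1222 and 871 CPM in 5 WT libraries, at 0.0722 CPM or less in the other 3, and at 1.449 CPM or less in all CFTR−/− libraries. It was thus either abundant or nearly absent in WT animals and nearly absent in every CFTR−/− animal, and whether this followed the sex of the animals was not tested.

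Some genes were higher in both CFTR−/− animals, and remained so by a fold change of like or smaller size when animal 2 was left out. TTC21B, a component of the transport machinery of the primary cilium, was at 13.6, 12.2, 23.6 and 25.1 CPM, and edgeR gave 0.92 on the log2 scale (SE 0.247). The aldehyde oxidase AOX1 was at 2.22, 1.82, 5.70 and 7.33 CPM, and edgeR gave 1.69 (SE 0.466). For both genes the difference between the genotypes was larger than that between the animals of a genotype, and it was 0.87 and 1.5 without CFTR−/− animal 2. PTGR1, a reductase of prostaglandins and leukotrienes, was at 21.4, 30.3, 38.7 and 52.7 CPM, and GPX7, a peroxidase of the endoplasmic reticulum, was at 38.3, 25.2, 48.9 and 91.1 CPM. In both, CFTR−/− animal 2 was the highest of the 4 and animal 1 lay above both WT animals, and their log2 fold changes of 0.82 and 1.14 were 0.58 and 0.63 without animal 2. CLSTN1, a transmembrane protein of the calsyntenin family, was at 168, 161, 303 and 305 CPM, and TRDN, which encodes the calcium store protein triadin, was at 1.06, 0.880, 5.13 and 5.14 CPM. CLSTN1 and TRDN were picked after their values were seen, for the closeness of the 2 animals in each genotype.

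SYCP2L, a germline gene related to a component of the synaptonemal complex, had the smallest unadjusted p of all genes at 80 days, 0.000134 by edgeR's quasi-likelihood F-test fitted to all genes. It was at 0.0827, 0.0489, 4.70 and 0.603 CPM. The WT animals lay near the floor, and CFTR−/− animal 1 lay far above animal 2 while both lay above the WT animals. Its log2 fold change of 5.30 was 3.15 without CFTR−/− animal 1. PARP3, an ADP-ribosyltransferase of the DNA damage response, was at 1.65, 1.10, 8.33 and 3.76 CPM. By edgeR its log2 fold change was 2.13 (SE 0.448), or 1.43 without CFTR−/− animal 1. SYCP2L and PARP3 were the 2 higher genes of the list in which CFTR−/− animal 1 was more than 2-fold above animal 2. Both were called by DESeq2's Wald test, with Benjamini-Hochberg adjusted p of 1.53e-05 and 0.0083, and SYCP2L was also called by the likelihood ratio test. GCSAML, known from germinal center B cells, was at 0 in both WT animals and at 1.28 and 3.55 CPM in the CFTR−/− animals, at least 61.9-fold higher. LOC105602836 (chromosome 17) was at 0 in both WT animals and at 1.53 and 1.93 CPM in the CFTR−/− animals, at least 44.3-fold higher. LOC101114941, annotated as protein coding, was at 5.62, 5.02, 13.9 and 23.1 CPM.

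Another set of genes was above WT in both CFTR−/− animals but much higher in animal 2 than in animal 1. TNNI1, a troponin of slow skeletal muscle, was at 3.15, 2.15, 5.05 and 43.0 CPM, and its log2 fold change of 3.18 was 0.93 without animal 2. Apolipoprotein A1 (APOA1), a lipoprotein component made by liver and small intestine, was at 365, 350, 519 and 4799 CPM, and its log2 fold change of 2.90 was 0.54 without animal 2. PDZK1IP1, a small membrane protein of epithelia, was at 0.413, 0.183, 1.19 and 10.3 CPM, and its log2 fold change of 4.27 was 1.99 without animal 2. These 3, LAD1, an anchoring filament protein of basement membranes (10.5, 8.53, 14.8 and 39.3 CPM), and FNDC5, the precursor of irisin (7.85, 9.60, 12.9 and 46.1 CPM), did not overlap between the genotypes, but each difference was much smaller without CFTR−/− animal 2. The log2 fold changes of LAD1 and FNDC5, 1.51 and 1.76, were 0.64 and 0.57 without CFTR−/− animal 2.

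The 10 genes with the highest ratio of CFTR−/− animal 2 to the highest of the other 3 animals, among genes of at least 10 CPM in it, describe how that animal differed at 80 days. Beside APOA1 they were APOC3 (0.386, 0.110, 0.356 and 19.8 CPM), LOC105610446 (0.909, 0.697, 0.897 and 40.1 CPM), ANKRD1 (0.496, 0.330, 0.858 and 20.4 CPM), PHLDA2 (0.964, 0.709, 1.48 and 28.6 CPM), LY6D (2.85, 0.770, 4.03 and 68.9 CPM), GCNT3 (0.895, 0.513, 0.937 and 14.9 CPM), TMEM190 (2.58, 1.64, 2.38 and 26.2 CPM), PLCXD1 (2.01, 1.52, 1.81 and 20.4 CPM) and LOC101112345 (73.5, 75.5, 93.0 and 873 CPM). APOC3, LOC101112345 and APOA1 are neighbors on chromosome 15, between 26940125 and 26957300. ANKRD1 is a nuclear target of stretch and YAP signaling, PHLDA2 an imprinted growth regulator, and LY6D a surface protein of stratified epithelia and B cell progenitors. Several of these genes were also higher in CFTR−/− animals of other ages. LY6D was higher without overlap at each of the 4 other ages, and APOA1 at 65, 100 and 147 days. ANKRD1 was so at 65 and 100 days and PHLDA2 at 65 and 147 days. APOC3 was not, and was lower without overlap at 100 days.

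**Figure D1:**
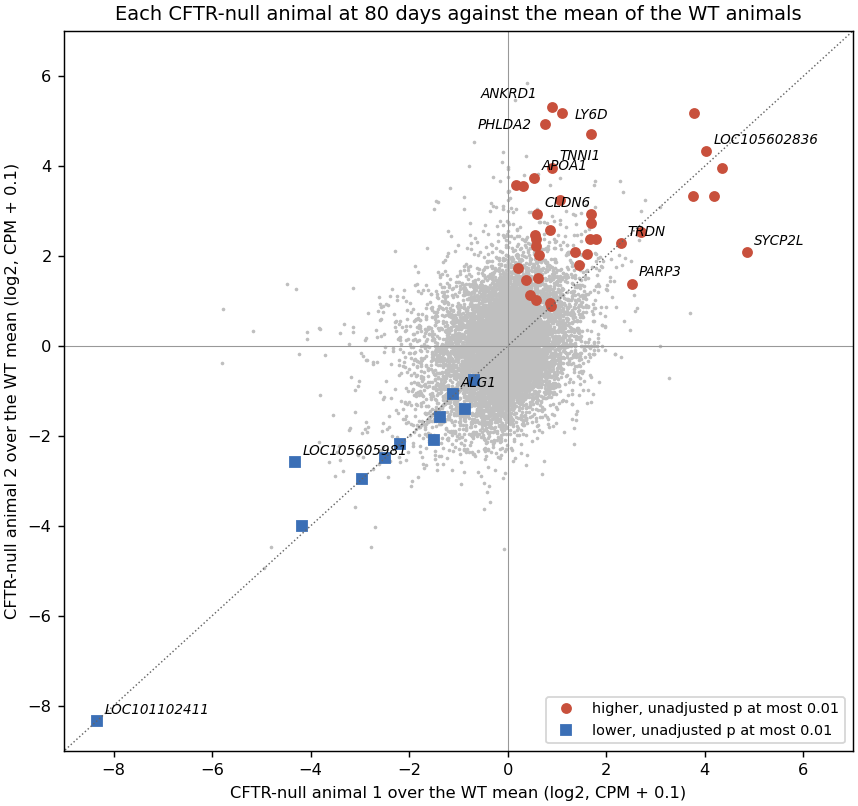
Log2 ratio of CFTR−/− animal 1 (horizontal axis) and of CFTR−/− animal 2 (vertical axis) to the mean of the 2 WT animals at 80 days, for each of the 19522 genes tested, from CPM with 0.1 added. Red circles are the 38 genes that were higher and blue squares the 12 that were lower at an unadjusted p of 0.01 with the fold limit, the dotted line marks equal ratios, and 20 of the red circles stand for genes more than 2-fold higher in animal 2 than in animal 1.

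The remaining 16 libraries hold other animals, so they show whether a difference at 80 days was also there at other ages. Averaged over 65, 100, 120 and 147 days, edgeR called 21 genes (0.108% of 19522) at a Benjamini-Hochberg adjusted p of 0.01, 13 higher and 8 lower in CFTR−/− animals. Of the 50 genes of the 80-day list, 35 of the 38 higher and all 12 lower ones had the same sign in this contrast, and 4 and 3 of them were called there. At an unadjusted p of 0.01 with the fold limit, 20 of the 38 (against 2.05% of all genes) and 8 of the 12 (against 2.06%) were different in the same direction over the other ages. The animals of these ages are not those of 80 days, but all CFTR−/− animals share 1 donor line, and both tests use each gene's 1 estimate of the spread.

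ALG1 was called over the other ages as well, with a log2 fold change of -0.94 and a Benjamini-Hochberg adjusted p of 0.00298 by edgeR, and it was lower without overlap at each of the 4 ages. Over the 8 WT libraries of the other ages it ranged from 20 to 42.6 CPM (median 27.2), and over the 8 CFTR−/− libraries from 9.64 to 19.7 CPM (median 15.6). The lowest WT library thus lay above the highest CFTR−/− library. LOC105602321 had 0 counts in all 10 CFTR−/− libraries and 0.482 to 4.09 CPM in all 10 WT libraries, and it was called over the other ages with a Benjamini-Hochberg adjusted p of 0.00298 by edgeR. COPG2, TTC21B, AOX1 and GPX7 also differed without overlap in the 80-day direction at each of the 4 other ages, but their Benjamini-Hochberg adjusted p by edgeR was 0.0144, 0.034, 0.0109 and 0.0139, so none of them was called. The same held for LY6D, SAYSD1 and FBLN1, with an edgeR Benjamini-Hochberg adjusted p of 0.0344, 0.144 and 0.0613. PARP3 was higher without overlap at 3 of the 4 other ages, with an edgeR Benjamini-Hochberg adjusted p of 0.0516. STPG1, low at 80 days, was called as lower over the other ages with a Benjamini-Hochberg adjusted p of 0.00616 by edgeR and did not overlap at any of the 4.

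For other genes the 80-day difference was found at some of the other ages or at none. SYCP2L was at 3.59 to 59.4 CPM in the WT libraries of the other ages and at 0.866 to 22.7 CPM in the CFTR−/− libraries, and it was lower in CFTR−/− animals without overlap at 65, 100 and 147 days. The opposite sign at 80 days went with WT values there that lay far under those of every other age. The difference of the differences had an unadjusted p of 2.8e-05 and a Benjamini-Hochberg adjusted p of 0.547 by edgeR, whereas the 2 other tests given below called it. LOC101102411, at 0 counts in both CFTR−/− animals at 80 days, was also lower without overlap at 65 days (31.4 and 48.7 CPM in WT against 0.433 and 0 in CFTR−/− animals) and at 120 days (32.5 and 7.15 against 2.83 and 0.654 CPM). It overlapped at 100 and 147 days, with up to 29.7 CPM in a CFTR−/− library, and its log2 fold change over the other ages was -3.35, with a Benjamini-Hochberg adjusted p of 0.0641 by edgeR. LOC105602836, absent from both WT animals at 80 days, was higher in CFTR−/− animals without overlap at 65, 100 and 147 days and lower without overlap at 120 days, with a log2 fold change of 2.69 over the other ages and a Benjamini-Hochberg adjusted p of 0.148 by edgeR. Over all genes, edgeR called 0 of 19522 (0%) for a difference between 80 days and the other ages, with 226 at an unadjusted p under 0.05. For the same contrast the Wald test of DESeq2 called 4 genes, among them SYCP2L, LOC101108147 and SMPDL3A, and edgeR's likelihood ratio test called SYCP2L alone.

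**Figure D2:**
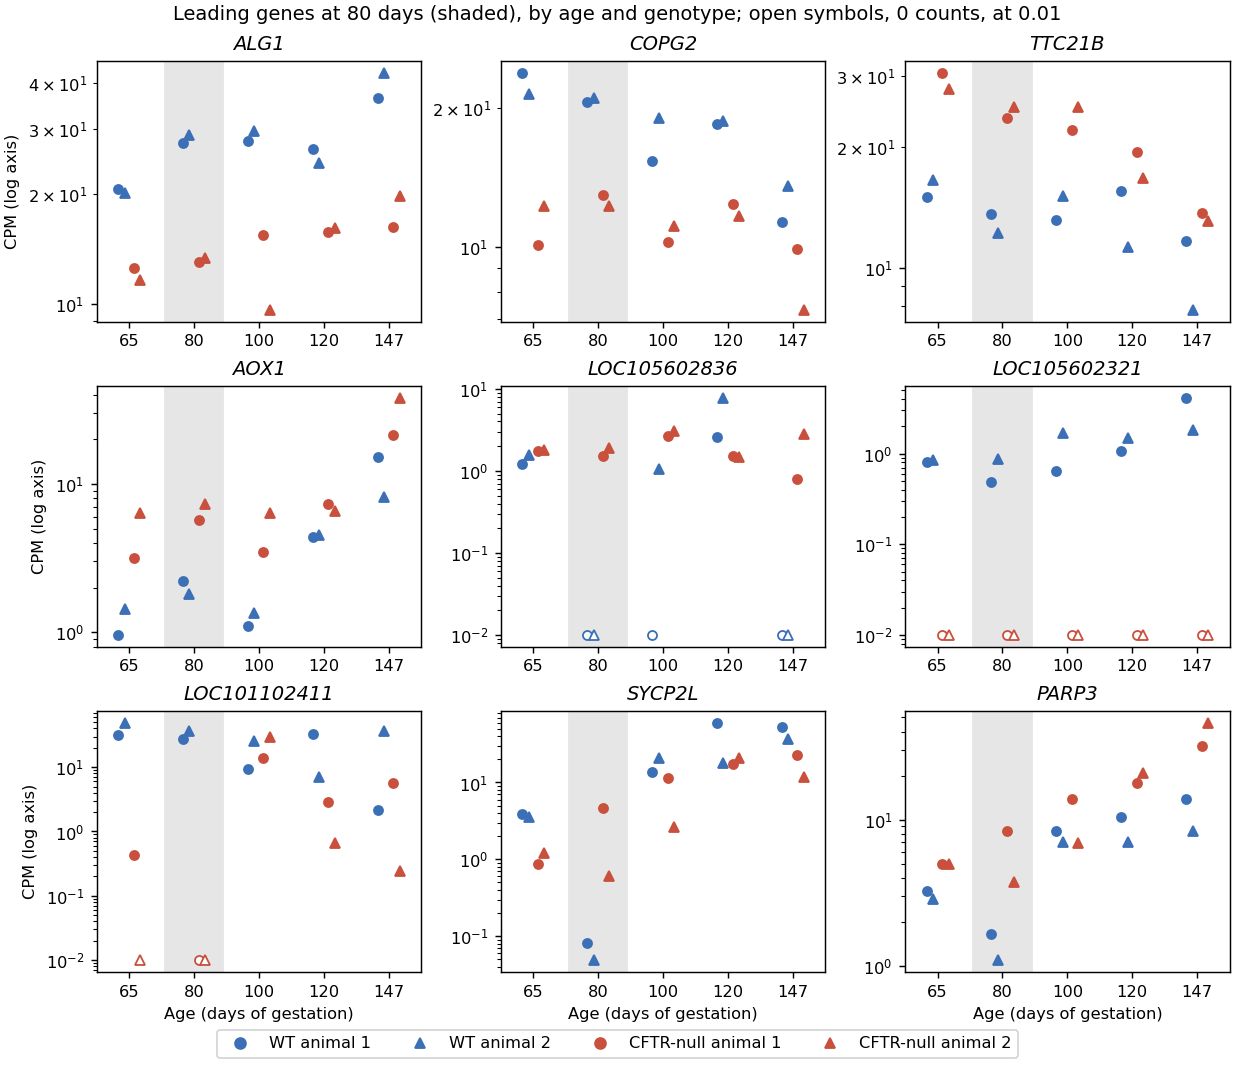
CPM on log axes of 9 genes in each of the 20 libraries, by days of gestation, with 80 days shaded, WT animals in blue and CFTR−/− animals in red. Circles and triangles are animals 1 and 2 of a group, and open symbols drawn at 0.01 are libraries with 0 counts. ALG1 lay lower and TTC21B higher in both CFTR−/− animals at each age, whereas SYCP2L was higher in CFTR−/− animals at 80 days and lower at 65, 100 and 147 days.

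The 21 genes called over the other ages were then read at 80 days, a set chosen by values of other animals and not by the rule for named genes. Of these, 19 had the same sign at 80 days, 15 did not overlap in the same direction, 11 had an unadjusted p under 0.05 by edgeR and 7 were in the 80-day list. Over all genes 15.1% were higher and 15.8% lower without overlap, 1.41% had such a p, and 0.195% (higher) and 0.0615% (lower) were in that list. The 7 were ALG1, CRIP2, LOC105602321, LOC101114941, LOC105605981, LOC105602135 and LOC101104797. CRIP2, a LIM domain protein of vessels and smooth muscle, was at 25.0, 20.7, 31.3 and 50.5 CPM. LOC105605981 was at 81.6, 49.4, 3.19 and 10.9 CPM, and LOC105602135 at 0.0827, 0.135, 4.14 and 3.12 CPM. LOC101104797 was at 9.77, 5.34, 26.5 and 40.0 CPM. In each of them both CFTR−/− animals lay on one side of both WT animals. The secretin receptor gene SCTR, whose ligand drives bicarbonate secretion by ducts, was at 42.8, 36.0, 68.8 and 143 CPM at 80 days, with a log2 fold change of 1.43 beside 1.62 over the other ages. SMPDL3A and IGFBP5 were the genes whose sign was the opposite at 80 days. SMPDL3A, a phosphodiesterase, was at 5.70, 5.34, 8.62 and 6.70 CPM, with a log2 fold change of 0.47 beside -2.10 over the other ages, where the WT libraries ranged from 7.32 to 54.9 CPM. IGFBP5, an insulin-like growth factor binding protein, was at 246, 236, 269 and 205 CPM, with a log2 fold change of -0.03 beside 1.01. The eotaxin gene CCL26 was at 11.1, 9.14, 28.3 and 16.0 CPM, a log2 fold change of 1.13 beside 2.75, and the guidance ligand gene SLIT3 at 33.3, 29.5, 37.7 and 46.0 CPM, 0.41 beside 0.92. Leaving out CFTR−/− animal 2 brought the 80-day log2 fold change to 0.46 for CRIP2 (0.84 with all animals), 0.81 for SCTR, 0.27 for SLIT3 and 0.16 for IGFBP5, and leaving out CFTR−/− animal 1 brought it to 0.64 for CCL26 and 0.26 for SMPDL3A.

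Markers of cell types and genes of cell processes were read in lists. For each list the number of members tested, the number whose genotypes did not overlap and the median log2 fold change are given, beside 15.1% not overlapping in the higher and 15.8% in the lower direction and a median of 0.0045 over all genes. In bulk tissue, fewer cells of a type and less RNA per cell cannot be told apart.

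The summed CPM of acinar genes was alike in 3 animals and lower in CFTR−/− animal 2, which single genes did not all follow. Of 35 acinar genes listed, 21 were matched by name, so the sum covers a part of them. The 21 acinar genes summed to 31630, 31400, 31690 and 20450 CPM. Their median log2 fold change was -0.033, or 0.10 without CFTR−/− animal 2 and -0.32 without animal 1, -0.078 without WT animal 1 and -0.074 without WT animal 2, with 1 gene higher and 5 lower without overlap. CFTR−/− animal 2 lay under both WT animals for 12 of the 21 (57.1%, against 37% of all genes) and CFTR−/− animal 1 for 6 (28.6%, against 29.5%). The trypsinogen gene PRSS2 was at 1670, 1528, 1137 and 569 CPM, the lipase-related PNLIPRP2 at 5162, 5735, 4691 and 2213 CPM, and elastase CELA3B at 2868, 2485, 2667 and 2061 CPM. Colipase (CLPS) was at 527, 1459, 1238 and 258 CPM and overlapped. DNASE1, a secreted deoxyribonuclease, was at 96.0, 112, 372 and 404 CPM, higher in both CFTR−/− animals, with a log2 fold change of 1.90 (SE 1.01, edgeR).

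Of 28 duct genes, 16 were higher (57.1%) and 1 lower without overlap, and the median log2 fold change was 0.46, or 0.19 without CFTR−/− animal 2 and 0.27 without WT animal 1. Their sum was 1873, 1775, 1932 and 3241 CPM, and CFTR−/− animal 2 had the highest value of the 4 animals for 21. CFTR−/− animal 1 lay above both WT animals for 18 of the 28 (64.3%, against 30.7% of all genes). CFTR−/− animal 2 did so for 22 (78.6%, against 38.4%). Keratin 8 (KRT8), the member with the highest CPM, was at 377, 370, 394 and 754 CPM, and keratin 19 (KRT19) at 104, 82.6, 95.9 and 319 CPM. The log2 fold change of KRT19, 1.15 with all animals, was 0.04 without CFTR−/− animal 2. The duct transcription factor SOX9 (82.7, 88.2, 98.1 and 109 CPM) and SCTR, as given above, were higher than WT in both CFTR−/− animals. LAD1 and the embryonic claudin gene CLDN6 (7.07, 6.09, 9.96 and 50.8 CPM, named after its value was seen) were the 2 duct genes of the 80-day list. Other members overlapped, among them ELF5 at 24.9, 34.7, 26.1 and 20.5 CPM, SPP1 at 94.1, 83.9, 31.6 and 107 CPM and KRT7 at 150, 51.2, 65.8 and 221 CPM. Whether the higher duct and lower acinar sums of CFTR−/− animal 2 reflect the piece of tissue taken was not tested.

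None of the genes of ductal ion transport and mucus was in the 80-day list. Of 29 tested, 6 were higher (20.7%) and 8 lower (27.6%) without overlap, with a median of 0.031. This median was -0.19 without WT animal 1, 0.25 without WT animal 2, -0.13 without CFTR−/− animal 1 and 0.08 without CFTR−/− animal 2. The sum was 1027, 1037, 893 and 787 CPM, led by the trefoil factor TFF2 at 484, 436, 346 and 295 CPM. AGR2, a disulfide isomerase of mucin folding, was at 96.4, 109, 75.8 and 34.7 CPM. For TFF2 and AGR2 both CFTR−/− animals lay under both WT animals, with log2 fold changes of -0.52 and -0.90, and AGR2 was at -0.44 without CFTR−/− animal 2 and at -1.59 without CFTR−/− animal 1. SCNN1B, a subunit of the epithelial sodium channel, was at 0.882, 1.20, 0.0924 and 0.131 CPM. The gel-forming mucin genes MUC5AC and MUC5B had no count in the 4 animals, and MUC6 was at 1.12, 1.83, 1.11 and 0.485 CPM.

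Of 38 endocrine genes 2 were higher and 9 lower without overlap, and the median log2 fold change was -0.29, or 0.02 without CFTR−/− animal 2 and -0.73 without animal 1. Their sum was 15650, 11610, 12140 and 8641 CPM, led by glucagon. CFTR−/− animal 2 lay under both WT animals for 26 of the 38 genes (68.4%, against 37% of all genes) and CFTR−/− animal 1 for 10 (26.3%, against 29.5%). Somatostatin (SST) was at 1372, 912, 917 and 1181 CPM and overlapped, as did ISL1, an islet transcription factor, at 41.7, 36.3, 46.0 and 25.8 CPM. PCSK1N, an inhibitor of prohormone convertase 1, was at 86.9, 75.3, 51.1 and 34.7 CPM and did not overlap. Of 17 neuron genes 0 were higher and 4 lower without overlap, with a median of -0.29 (-0.51 without WT animal 1) and sums of 301, 241, 257 and 255 CPM, led by UCHL1 at 167, 108, 128 and 147 CPM.

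Most stromal and all stellate cell genes were higher than WT in CFTR−/− animal 2, and a smaller number of them in animal 1. All but 2 of 38 stromal and matrix genes had a positive log2 fold change, with a median of 0.44, but the median was -0.029 without CFTR−/− animal 2, 0.75 without CFTR−/− animal 1 and 0.28 without WT animal 1. CFTR−/− animal 2 lay above both WT animals for 34 of the 38 and CFTR−/− animal 1 for 7, where the shares of all genes were 38.4% and 30.7%, and 7 were higher without overlap. The sums were 6630, 7366, 6481 and 12400 CPM. The collagen COL3A1 was at 2146, 2375, 1914 and 3786 CPM and decorin (DCN) at 282, 289, 286 and 713 CPM. For these and most other members CFTR−/− animal 1 lay in or under the WT range. Fibulin 1 (FBLN1) was an exception, at 44.8, 53.4, 61.7 and 198 CPM.

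For 26 stellate cell or myofibroblast genes the median log2 fold change was 0.68, with 11 higher and 0 lower without overlap. The median was 0.088 without CFTR−/− animal 2 and 1.05 without CFTR−/− animal 1. Their sums were 2412, 2416, 2541 and 4775 CPM, led by vimentin (VIM) at 780, 785, 781 and 1550 CPM. CFTR−/− animal 2 lay above both WT animals for all 26 genes and CFTR−/− animal 1 for 11 (42.3%). The contractile genes ACTA2, encoding smooth muscle actin, and MYL9 were at 42.6, 46.7, 57.8 and 128 CPM and at 47.6, 45.1, 54.7 and 98.5 CPM, above WT in both CFTR−/− animals. The matricellular gene SPARC was at 652, 671, 644 and 1537 CPM, so that CFTR−/− animal 1 did not lie above WT. TGFB1, a cytokine that activates stellate cells, was at 8.07, 6.64, 7.80 and 11.7 CPM. The 80-day medians of both lists thus rested for the most part on CFTR−/− animal 2. Averaged over the other ages, the median was 0.62 for the stromal and 0.47 for the stellate list, beside -0.091 for all genes. ACTA2 was higher without overlap at 65, 100 and 147 days and overlapped at 120 days.

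Vascular, Schwann cell and adipocyte genes were read next. Of 22 endothelial genes 9 were higher and 0 lower without overlap (40.9% and 0%), with a median of 0.24, or 0.13 without CFTR−/− animal 2 and 0.38 without CFTR−/− animal 1, and sums of 542, 512, 595 and 729 CPM. Von Willebrand factor (VWF) was at 58.3, 48.9, 80.7 and 93.7 CPM, above WT in both CFTR−/− animals, and the list's member with the highest CPM, PLVAP, was at 94.0, 69.7, 85.0 and 108 CPM. Of 23 genes of Schwann cells, or of a cell cluster the study describes with them, 4 were higher and 4 lower without overlap, with a median of -0.0032 and sums of 270, 325, 315 and 329 CPM. This median was -0.019 without WT animal 1, 0.34 without WT animal 2, 0.070 without CFTR−/− animal 1 and -0.14 without CFTR−/− animal 2. Their leading member ERBB3 was at 66.4, 88.8, 89.8 and 64.8 CPM. Of 13 adipocyte genes 7 stayed under 1 CPM in all 4 animals, and 3 were higher and 2 lower without overlap. Their median of 0.60 became -0.135 on leaving out CFTR−/− animal 2 and -0.132 on leaving out WT animal 2, and their sums of 67.6, 61.6, 57.8 and 46.0 CPM, led by GPD1 at 54.0, 51.8, 48.1 and 27.3 CPM, were lower in CFTR−/− animals.

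**Figure D3:**
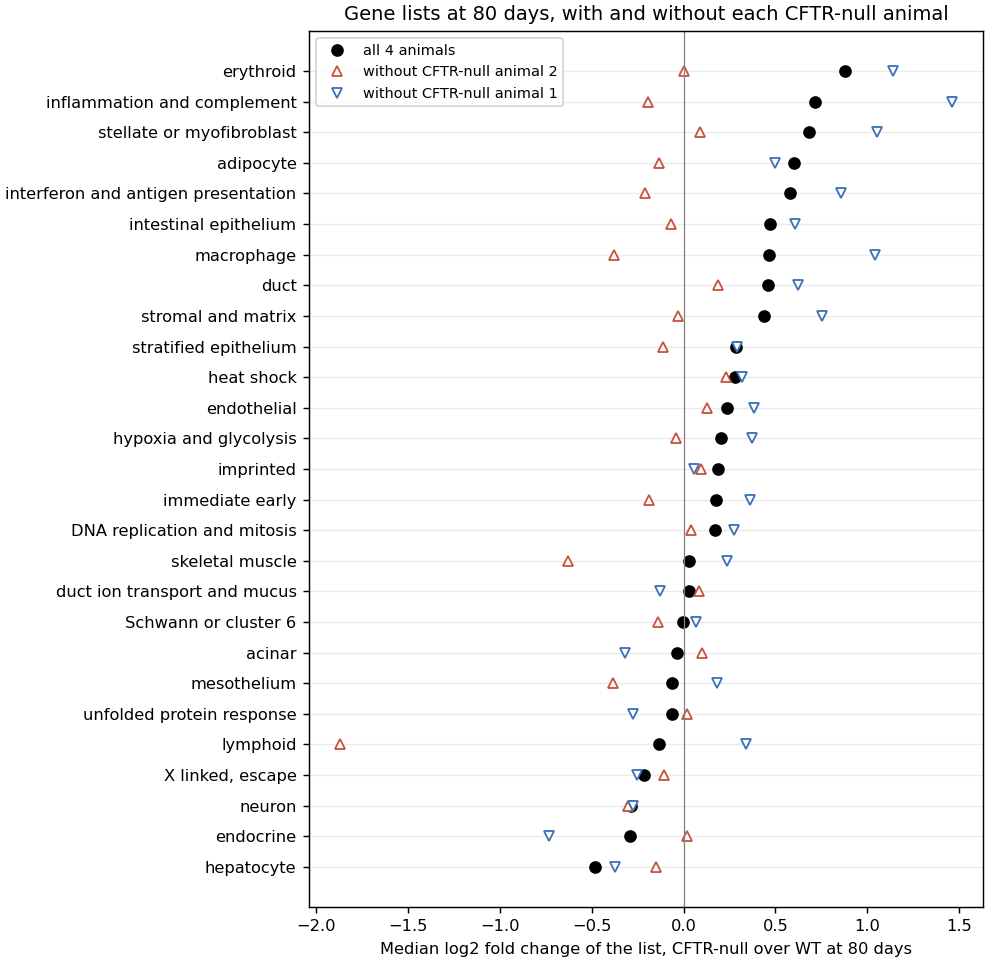
Median log2 fold change of each gene list, CFTR−/− over WT at 80 days, with all 4 animals (black circles), without CFTR−/− animal 2 (red triangles pointing up) and without CFTR−/− animal 1 (blue triangles pointing down). The stromal list lay at 0.44 with all animals and at -0.029 without CFTR−/− animal 2, and the heat shock list at 0.28 and 0.23.

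Leukocyte genes differed more between animals than between genotypes. The 17 macrophage genes summed to 279, 110, 136 and 386 CPM, and the 19 lymphoid genes to 130, 43.2, 42.4 and 90.9 CPM. In each list WT animal 1 and CFTR−/− animal 2 were the high pair and the other 2 animals the low pair. The invariant chain gene CD74, which led the macrophage list, was at 133, 23.7, 42.5 and 172 CPM, and the common leukocyte antigen gene PTPRC, which led the lymphoid list, at 38.6, 19.1, 19.5 and 18.1 CPM. The macrophage median was 0.47 (3 higher and 0 lower without overlap), or -0.38 without CFTR−/− animal 2, 1.04 without CFTR−/− animal 1, 0.87 without WT animal 1 and -0.019 without WT animal 2. The lymphoid median was -0.13 (0 higher and 1 lower), or -1.87 without CFTR−/− animal 2, 0.34 without CFTR−/− animal 1, 2.06 without WT animal 1 and -0.66 without WT animal 2. MARCO and CD27 had no count in the 4 animals.

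Of 27 interferon and antigen presentation genes 6 were higher and 0 lower without overlap, and of 25 inflammation and complement genes 8 were higher and 3 lower. The medians were 0.58 and 0.72, and without CFTR−/− animal 2 they were -0.21 and -0.20. Without WT animal 2 they were 0.22 and 0.35, without WT animal 1 the first was 0.93, and without CFTR−/− animal 1 the second was 1.46. With 1 inflammation gene that had no count in a whole genotype set at its bound, that median was 0.57. The sums were 372, 276, 319 and 546 CPM for the first list, led by B2M at 109, 63.2, 70.9 and 189 CPM, and 323, 287, 333 and 699 CPM for the second, led by the complement regulator CFI at 109, 124, 149 and 232 CPM. CFTR−/− animal 2 was thus highest in both lists. IL1R1, the interleukin 1 receptor, was above WT in both CFTR−/− animals, at 3.07, 3.97, 6.48 and 21.5 CPM, and MICA, a stress ligand of natural killer cells, at 0.0964, 0.122, 0.568 and 0.996 CPM. Of 13 erythroid genes 2 were higher and 0 lower without overlap, with a median of 0.88, or 0.0041 without CFTR−/− animal 2 and, without WT animal 2, 0.28, with sums of 51.4, 61.4, 58.2 and 70.7 CPM, led by TFRC at 18.1, 30.1, 26.1 and 14.7 CPM. AHSP, the chaperone of alpha globin, was at 2.87, 1.19, 1.62 and 18.2 CPM, and the hemoglobin genes of the list were not matched by name, so any that the table holds under other IDs were not read.

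Because single genes of intestine, muscle and squamous epithelium were among those high in CFTR−/− animal 2, whole lists of these tissues were read beside them. Many members were scarce, so the medians rest in part on low counts. Under 1 CPM in all 4 animals were 13 of 28 matched intestinal and 13 of 22 skeletal muscle genes. The same held for 7 of 15 stratified epithelium and 5 of 9 mesothelium genes. Of 24 intestinal epithelium genes 6 were higher and 4 lower without overlap, with a median of 0.47 (0.46 with the 2 genes that had no count in a whole genotype at their bound), or -0.066 without CFTR−/− animal 2, 0.25 without WT animal 1 and 0.97 without WT animal 2. The sums of 689, 702, 928 and 5167 CPM were led by APOA1, which made 4799 CPM of the last value. CDX2, a transcription factor of intestinal identity singled out after its value was seen, was at 1.98, 2.79, 3.52 and 13.6 CPM, and the list had 3 genes in the 80-day list, APOA1, PDZK1IP1 and CDX2. ISX and ATOH1 had no count in the 4 animals, and sucrase-isomaltase (SI) was at 0, 0, 0 and 0.105 CPM. The brush border genes VIL1 and ANPEP, at 110, 114, 115 and 86.1 CPM and at 128, 131, 202 and 152 CPM, did not share this pattern. VIL1 was lowest in CFTR−/− animal 2, and ANPEP was highest in animal 1.

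Of 17 skeletal muscle genes 3 were higher and 3 lower without overlap, with a median of 0.032, or -0.63 without CFTR−/− animal 2, 0.24 without CFTR−/− animal 1, -0.019 without WT animal 1 and -0.018 without WT animal 2. Their sums were 31.2, 29.2, 28.4 and 72.8 CPM, of which TNNI1 made 43.0 CPM in the last animal, and the most abundant member, MYBPC2, was at 16.4, 13.2, 14.7 and 17.6 CPM. The muscle determination genes MYOD1 and MYOG had no count in the 4 animals. Of 12 stratified epithelium genes 3 were higher and 2 lower without overlap, with a median of 0.29, or -0.11 without CFTR−/− animal 2 and, without WT animal 1, 0.47, with sums of 104, 102, 97.1 and 149 CPM, led by PERP at 91.0, 91.2, 84.4 and 64.8 CPM. TP63, which defines basal cells, had no count in the 4 animals, and LY6D made 68.9 CPM of the last sum. Of 9 mesothelium genes 1 was higher and 2 lower without overlap, with a median of -0.062, or -0.38 without CFTR−/− animal 2, 0.18 without CFTR−/− animal 1 and 1.21 without WT animal 2. Their sums were 22.1, 21.5, 15.9 and 53.6 CPM, led by GPM6A at 15.7, 15.8, 12.1 and 18.1 CPM, with mesothelin (MSLN) at 2.56, 1.80, 1.03 and 10.8 CPM and ANKRD1 at 20.4 CPM in the last animal. The part of other cell types in the values of CFTR−/− animal 2 was not tested.

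Genes of the hepatocyte list were more often lower than higher in CFTR−/− animals. Of 25 hepatocyte genes 4 were higher and 9 lower without overlap (16 and 36%), with a median of -0.48, or -0.15 without CFTR−/− animal 2 and -0.26 without WT animal 2. The sums were 1122, 953, 902 and 753 CPM, led by AMBP at 734, 498, 470 and 363 CPM and RBP4 at 154, 169, 146 and 134 CPM. Albumin (ALB) was at 3.64, 1.97, 3.06 and 1.26 CPM in the same animals, so that the defining liver transcript was low in all of them. In the study's single-cell data RBP4 was a marker of stromal cells, so the list does not read liver cells alone.

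The summed CPM of heat shock genes was higher in both CFTR−/− animals than in both WT animals, but no member was in the 80-day list. Of 23 tested, 12 were higher (52.2%) and 1 lower without overlap, with a median of 0.28, or 0.23 without CFTR−/− animal 2. CFTR−/− animal 1 lay above both WT animals for 17 of the 23 (73.9%, against 30.7% of all genes) and CFTR−/− animal 2 for 14 (60.9%, against 38.4%). The sums were 3407, 3350, 4445 and 4493 CPM, led by HSP90AB1 at 984, 867, 919 and 1054 CPM. Much of the rise of the sums came from the inducible chaperone gene HSPA1A, at 274, 424, 1027 and 874 CPM. HSPA6 was at 3.29, 2.37, 9.48 and 9.75 CPM, and their cochaperone DNAJB1, named after its value was seen, at 54.4, 56.0, 115 and 96.7 CPM. For these 3 genes both CFTR−/− animals lay above both WT animals. Their log2 fold changes were 1.447 (SE 0.785), 1.76 (SE 0.676) and 0.94 (SE 0.422) by edgeR, and averaged over the other ages they were -0.47, -1.31 and -0.24. The ages differed in this: at 65 and 100 days all 3 genes were lower without overlap, at 120 days they overlapped, and at 147 days they were higher without overlap, as at 80 days, with log2 fold changes of 1.80, 2.97 and 1.30. For HSPA6 the difference between 80 days and the other ages had an unadjusted p of 0.0012 by edgeR's quasi-likelihood F-test fitted to all genes, which did not pass the adjusted threshold. These genes respond within minutes to heat and handling, and the time from death to freezing is not in the labels, so its part was not tested.

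The process lists read next had no member in the 80-day list. In those of the unfolded protein response (9.68% higher and 6.45% lower) and of hypoxia (11.1% and 7.41%), the shares without overlap lay under those of all genes. Of 31 genes of the unfolded protein response 3 were higher and 2 lower without overlap, with a median of -0.064, or -0.28 without CFTR−/− animal 1, 0.019 without CFTR−/− animal 2 and, without WT animal 2, -0.038, with sums of 6445, 6454, 6730 and 5959 CPM. HSP90B1, which led it, was at 1009, 933, 1028 and 946 CPM, while DERL3, of the degradation machinery of the endoplasmic reticulum, was at 5.44, 6.99, 1.79 and 1.89 CPM. Of 32 DNA replication and mitosis genes 9 were higher and 2 lower without overlap, with a median of 0.17, or 0.041 without CFTR−/− animal 2, 0.27 without CFTR−/− animal 1 and, without WT animal 2, 0.092, with sums of 1076, 982, 1015 and 1272 CPM. The replicative helicase gene MCM7, which led it, was at 155, 131, 137 and 156 CPM. Of 24 immediate early genes 5 were higher and 2 lower without overlap, with a median of 0.18, or -0.19 without CFTR−/− animal 2, 0.36 without CFTR−/− animal 1, 0.083 without WT animal 1 and 0.28 without WT animal 2, and sums of 287, 294, 277 and 338 CPM, led by MYC at 69.6, 70.4, 62.2 and 35.8 CPM. Of 27 hypoxia and glycolysis genes 3 were higher and 2 lower without overlap, with a median of 0.20, or -0.042 without CFTR−/− animal 2, 0.37 without CFTR−/− animal 1 and, without WT animal 2, 0.31, with sums of 1075, 1035, 1050 and 1441 CPM, led by ALDOA at 232, 225, 257 and 300 CPM. CFTR−/− animal 2 lay under both WT animals for 19 of the 31 genes of the unfolded protein response (61.3%, against 37% of all genes) and above both for 24 of the 32 DNA replication and mitosis genes (75%, against 38.4%), of which 28.1% were higher without overlap. In the DNA replication, immediate early and hypoxia lists CFTR−/− animal 2 held the highest sum and CFTR−/− animal 1 lay within or near the WT range.

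Imprinted genes are of interest because the CFTR−/− animals were cloned. Of 29 tested 5 were higher and 3 lower without overlap, with a median of 0.19, or 0.018 without WT animal 1, 0.058 without CFTR−/− animal 1 and 0.093 without CFTR−/− animal 2. Their sums were 5747, 5277, 4346 and 5227 CPM, led by GNAS, which as given above was lower in both CFTR−/− animals. DLK1 was at 636, 602, 557 and 1520 CPM and overlapped, and its log2 fold change of 0.75 was -0.15 without CFTR−/− animal 2. DIRAS3, at 565, 486, 522 and 357 CPM, overlapped as well. The X-linked genes that escape inactivation in other mammals had a median of -0.22 over 15 members, with 1 higher and 3 lower without overlap, or -0.063 without WT animal 1 and -0.11 without CFTR−/− animal 2. Their sums were 4123, 3401, 3426 and 3599 CPM, led by RPS4X at 3135, 2572, 2579 and 2793 CPM. None of 8 Y-linked genes had a match by name in the table, so the sex of the animals could not be read from them.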

How the data were processed

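RNA from frozen pancreas was primed with oligo dT and sequenced as 100 bp read pairs, per the study's methods. The deposited values are raw counts of reads per gene, obtained by the authors with STAR (version 2.6 per the labels) on Oar_v4.0 and featureCounts 1.6.3 of Subread. The table of both genotypes was used, and the tables of single genotypes and 0 columns of the used table were left out.

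Counts of all 20 libraries in 10 groups of genotype and day were filtered with filterByExpr (minimum count 10, minimum total count 15), which kept 19522 genes. Scaling was by TMM, and the models were glmQLFit and glmQLFTest of edgeR 4.0.16 under R 4.3.3. Contrasts were CFTR−/− minus WT at 80 days, its mean over the other ages, and their difference. Calls needed a Benjamini-Hochberg adjusted p of 0.01 and an absolute log2 fold change of 0.58. To get an SE, the size of a log2 fold change was divided by the root of its F. Named genes were CFTR, the 12 per direction with the smallest p among named genes past the fold limit whose genotypes did not overlap, the first 2 unnamed loci per direction, genes at 0 in 1 genotype and at 1 CPM or more in the other, up to 4 members per list (the 3 most abundant and the one with the smallest p), 15 markers, and the 10 highest in the library farthest from the mean of the other 3. Genes outside this rule, including further list members, were chosen after their values were seen. The members and the lists were chosen with earlier results of these data known. Of 709 list entries, 647 matched a gene ID or a RefSeq name. The fits were tested on simulated data.

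The alternatives were DESeq2 1.42.0 (size factors, Wald test), no filter, the likelihood ratio test, the legacy fit, glmTreat against a fold of 1.5, an adjusted p of 0.05, the 4 libraries alone, a replicate block, leaving out each animal or the libraries the study names as apart, and, for lists, taking off a loess curve (span 0.3) of fold change on gene length.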

Additional observations from a re-analysis of the deposited data

How the results depend on the processing

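The 0 calls at 80 days became 7 with DESeq2's Wald test and 4 with the likelihood ratio test, and were 0 with every other alternative run, including each animal left out (0 to 0). The 50 genes at an unadjusted p of 0.01 became 122 with DESeq2's Wald test, 138 with the likelihood ratio test, 117 with the 4 libraries of 80 days alone, 103 without the libraries the study names as apart, and 31 with glmTreat, and lay between 14 and 123 with 1 animal left out. The 21 calls over the other ages became 48 without a filter, 338 with DESeq2's Wald test, 283 with the likelihood ratio test, 10 with the replicate block and 98 at an adjusted p of 0.05. The 0 calls for a difference between 80 days and the other ages became 4 with DESeq2's Wald test and 1 with the likelihood ratio test. The cause of these shifts was not tested, except that glmTreat and the adjusted p of 0.05 change the threshold itself. LOC101112291, at a log2 fold change of -12.08, was at 1.594 without WT animal 1, which held nearly all of its counts, and at -17.38 without CFTR−/− animal 2. Of 171 named genes 37 were past an unadjusted p of 0.01. Of these, 1 changed sign and 31 lost that p under some alternative, and 6 (SYCP2L, PARP3, ALG1, LOC105602836, LOC101102411 and LOC105602321) kept it under all. Of the 134 others 49 changed sign under an alternative, 49 of them when 1 animal was left out. Of 27 gene lists 17 changed the sign of their median under an alternative, 13 of them without CFTR−/− animal 2. With 1 animal left in a genotype, the spread comes from the remaining groups alone. Replicate numbers are shared by label only: the correlation of residuals between animals of the same number at 80 days was -0.249, within the range of -0.396 to 0.454 over pairs of groups, and the block left 42 genes at an unadjusted p of 0.01. Each group held 2 animals, so a lack of calls does not show that the genotypes are alike.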
